A study of Mus musculus with 13 samples.

Results

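Genes that mark the mural cells of blood vessels, the pericytes and smooth muscle cells, were followed through RNA sequencing of mouse microglia. The 10 genes were Rgs5, Pdgfrb, Vtn, Kcnj8, Abcc9, Notch3, Acta2, Tagln, Myl9 and Cspg4. They were named for their known role in mural cells, with earlier results of these data known, and no threshold on their values was applied. All 10 were found by their Ensembl gene ID among the 55487 genes of the table, and all 10 were among the 15511 genes that passed the filter on low counts. Microglia, the macrophages of the brain, had been selected on postnatal day 4 from the whole brain by magnetic capture of CD11b, a surface protein of myeloid cells. Control pups (CON) were compared with pups of mothers that underwent maternal immune activation (MIA), and the sources used here do not name the agent that the mothers received. Both groups shared the whole procedure: brains were not perfused, meninges were removed, tissue was digested with papain at 37 °C, and cells were not sorted for any vessel protein. CON 1 to CON 5 and MIA 1 to MIA 5 formed the comparison, while CON 6, MIA 6 and MIA 7, which their titles mark as excluded, are given as values. The sources used here give no sex, litter or pooling of pups. Nothing in the labels says that the libraries came from separate animals, so the p-values measure only the spread between these samples, which may be technical.

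Pericytes sit in the basement membrane of capillaries, and smooth muscle cells wrap the arterioles. Endothelial cells draw pericytes onto the vessel by secreting platelet-derived growth factor B, which the pericytes sense through the receptor encoded by Pdgfrb, and endothelial Notch ligands act on Notch3 in both kinds of mural cell. Pericytes carry a potassium channel that opens when cellular ATP falls, and smooth muscle cells carry the actin and myosin proteins that narrow the vessel. None of these genes is an identity marker of microglia, and bulk RNA of a CD11b selection can hold RNA of other cells that came through the magnetic column. In bulk RNA of this kind, fewer cells of a type and less RNA per cell cannot be told apart.

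Many smooth muscle genes are switched on by serum response factor, which binds the CArG box, a short motif with CC at one end, GG at the other and 6 letters of A or T between them. The 2 promoters below carry this motif or a near form of it and belong to contractile genes that varied together across the libraries. Each sequence is the 180 bases before the annotated start from RefSeq (GRCm38.p6), read 5′ to 3′ on the gene's own strand. Capitals mark CC, then 6 letters of which at most 1 is C or G, then GG. Acta2 lies at chr19:34255374-34255553 on the minus strand and Myl9 at chr2:156775284-156775463 on the plus strand.
Acta2: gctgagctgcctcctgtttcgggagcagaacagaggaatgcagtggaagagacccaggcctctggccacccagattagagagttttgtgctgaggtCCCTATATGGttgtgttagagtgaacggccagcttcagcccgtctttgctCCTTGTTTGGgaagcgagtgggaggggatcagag
Myl9: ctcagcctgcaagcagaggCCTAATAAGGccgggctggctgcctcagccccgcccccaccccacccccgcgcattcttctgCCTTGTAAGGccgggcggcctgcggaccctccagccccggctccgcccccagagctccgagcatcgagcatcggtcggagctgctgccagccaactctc

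The Acta2 matches began 84 and 34 bases before the start, and those of Myl9 161 and 99 bases before it. The first Myl9 match had only A or T in its middle and was the 1 exact CArG box among the members. Over the 250 bases before the start, 2 of the 8 members with a RefSeq window held a match of the looser kind, against 8.59% of 32851 windows. The exact box was in 1 of 8 members and in 1.47% of all windows. The motif reads the same on both strands in this search, and a match describes letters only. Neither Tagln nor Pdgfrb was among the 8.

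Depth was alike across the series, at 25387055 to 35593541 counts per library, so that 3 counts were worth between 0.0843 and 0.118 CPM. CPM here are read counts relative to library size, on a scale shared by all 13 libraries (TMM scaling). The markers of the labelled cell type were abundant: Csf1r, P2ry12, Tmem119, Cx3cr1 and Itgam, which encodes CD11b, together held 12580 to 16570 CPM in the retained controls and 8742 to 11080 CPM in the retained MIA libraries. The mural genes together held 425 to 770 CPM in the controls and 578 to 974 CPM in MIA. Counts behind single mural values ran from 112 for Tagln in CON 1 to 19440 for Rgs5 in CON 6.

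None of the 10 mural genes changed between CON and MIA at the threshold of 0.05 on the adjusted p (edgeR, Benjamini-Hochberg over 15511 genes). Over all genes tested, 5.75% were higher and 4.58% lower in MIA by the same rule. At an unadjusted p under 0.05, 2 of the 10, Vtn and Notch3, were above the controls, against 22.7% of all genes in either direction. Single libraries moved this count: it was 6 without CON 5 (21.5% of all genes), 6 without MIA 2 (21.2%) and 5 without CON 4 (20.9%), and 1 when the library left out was MIA 1, MIA 3, MIA 5, CON 1, CON 2 or CON 3 (19.0 to 27.9% of all genes). DESeq2 and limma-voom each called 1 of the 10, Notch3, where they called 7.51% and 6.19% of all genes as higher. The mean of every member was nevertheless on the MIA side, in 10 of 10 genes, against 48.9% of all genes tested. Their log2 fold changes ran from 0.26 to 0.53 with a median of 0.38, while the median over all genes was −0.009. No 95% interval of a member reached above 1.02, a little over a doubling, or below −0.35.

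**Figure D1:**
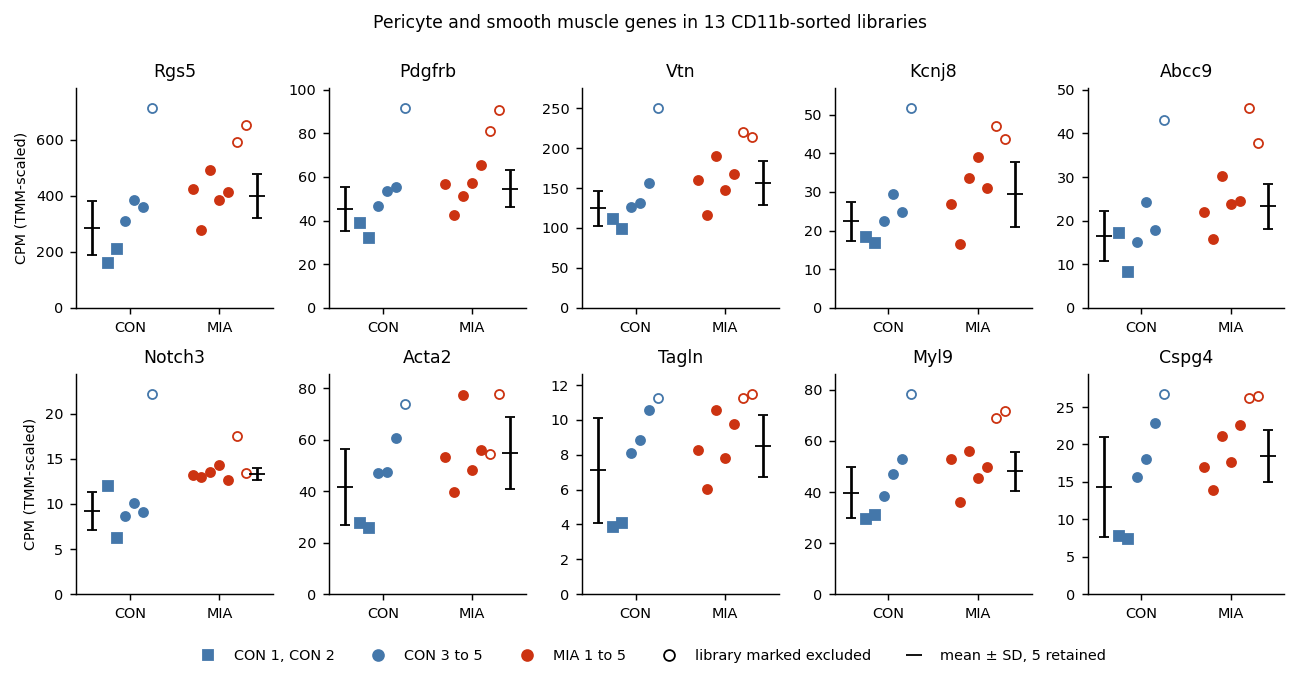
CPM of the 10 mural genes, 1 panel per gene with the level on the vertical axis and the 2 groups on the horizontal axis; each point is 1 library, open circles are the excluded libraries, squares CON 1 and CON 2, and bars the mean ± SD of the 5 retained libraries. The groups overlap in 9 panels, the retained MIA libraries of Notch3 all lie above the retained controls, and CON 6 is the highest of 13 libraries in 7 panels.

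Among the genes of signal reception, Rgs5 encodes a regulator that shortens G-protein signalling, and it is a common pericyte marker of the brain. Rgs5 was at 159 CPM in CON 1, 209 in CON 2, 311 in CON 3, 383 in CON 4 and 359.5 in CON 5. In MIA 1 to MIA 5 it was at 422, 277, 490.5, 385 and 414 CPM. Of the MIA libraries 4 lay above every retained control, and MIA 2 fell among the controls. Its means were 284 ± 96.9 and 398 ± 77.7 CPM (SD, n = 5 each). The log2 fold change of Rgs5 was 0.48 ± 0.24 (SE), with a 95% interval of −0.05 to 1.02 and an edgeR adjusted p of 0.273. Pdgfrb, the receptor for platelet-derived growth factor B, was at 38.9, 31.95, 46.8, 53.6 and 55.3 CPM in CON 1 to CON 5. Its MIA values were 56.7, 42.6, 51.2, 57.4 and 65.3 CPM in the order of the library numbers. The groups overlapped, with 3 of 5 MIA libraries above the highest retained control. The Pdgfrb means of 45.3 ± 9.87 and 54.6 ± 8.42 CPM (SD, n = 5 each) differed by 0.27 ± 0.15 on the log2 scale (SE; adjusted p = 0.337 in edgeR).

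Notch3, the Notch receptor of mural cells, was the only member whose groups did not overlap. Its CPM were 11.96, 6.22, 8.67, 10.1 and 9.14 in CON 1 to CON 5 and 13.2, 12.9, 13.5, 14.3 and 12.7 in MIA 1 to MIA 5. The highest retained control, CON 1, lay just under the lowest MIA library, MIA 5. Such a full separation with MIA above was found in 1 of 10 members and in 5.59% of all genes tested. The spread was narrow in MIA, at 13.3 ± 0.621 CPM, and wider in CON, at 9.22 ± 2.10 CPM (SD, n = 5 each). Notch3 had the largest log2 fold change of the members, 0.53 ± 0.16 (SE; 95% interval 0.17 to 0.88), with an edgeR adjusted p of 0.0593. This value lay close to the threshold and fell under it in 6 alternatives: 0.0149 without CON 1, 0.0334 without CON 1 and CON 2, 0.0452 with scaling to total counts, 0.0373 with a strict filter on low values, 0.0243 in DESeq2 and 0.0398 in limma-voom (adjusted p; edgeR unless named). Leaving out CON 1 removed the highest retained control. In all other alternatives Notch3 did not pass. Its edgeR adjusted p was 0.0666 with the replicate number as a block and 0.085 without a filter on low counts. Without any other single library it was 0.0782 to 0.137 (edgeR adjusted p). With all 13 libraries, in which CON 6 was at 22.1 CPM, the log2 fold change of Notch3 was 0.29 (edgeR adjusted p = 0.520).

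Kcnj8 and Abcc9 encode the pore and the regulatory subunit of the ATP-sensitive potassium channel of pericytes, and neither passed. Kcnj8 was at 18.3, 16.8, 22.6, 29.5 and 24.7 CPM in CON 1 to CON 5 and at 27.0, 16.6, 33.5, 39.0 and 30.9 CPM in MIA 1 to MIA 5. Its lowest value of all 13 libraries was in MIA 2, next to CON 2. Kcnj8 differed by 0.39 ± 0.21 on the log2 scale (SE; adjusted p = 0.310 in edgeR), from means of 22.4 ± 5.12 and 29.4 ± 8.40 CPM (SD, n = 5 each). Abcc9 was at 17.2, 8.29, 15.2, 24.2 and 17.8 CPM in the controls and at 22.0, 15.8, 30.2, 23.9 and 24.5 CPM in MIA. Its means were 16.6 ± 5.73 and 23.3 ± 5.17 CPM (SD, n = 5 each), which is 0.49 ± 0.24 on the log2 scale (SE; adjusted p = 0.258 in edgeR). For both subunits 4 of 5 MIA libraries were above the control median. The alternative subunits of this channel were scarce: Kcnj11 did not pass the filter on low counts, and Abcc8 averaged 0.208 CPM in the controls and 0.694 CPM in MIA, without a call and with at most 36 counts in a library.

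Vtn and Cspg4 encode proteins of the matrix and the cell surface. Vitronectin, the product of Vtn, is an adhesive protein that brain pericytes secrete. Its CPM were 111, 99.0, 126, 131 and 156 in CON 1 to CON 5 and 160, 117, 190, 147 and 167 in MIA 1 to MIA 5. In 3 MIA libraries the level exceeded every retained control. The means were 125 ± 21.7 and 156 ± 27.1 CPM (SD, n = 5 each). The log2 fold change of Vtn, 0.33 ± 0.14 (SE; 95% interval 0.03 to 0.63), had an edgeR p of 0.0343 before and 0.173 after adjustment. Cspg4 encodes the proteoglycan NG2, found on pericytes and also on oligodendrocyte precursors. It was at 7.75, 7.42, 15.6, 18.0 and 22.9 CPM in CON 1 to CON 5, and at 17.0, 13.9, 21.2, 17.6 and 22.6 CPM in MIA 1 to MIA 5. No MIA library lay above the highest control. Cspg4 had the widest relative spread of the members in CON, 46.7% of its mean against 18.8% in MIA, and a difference of 0.36 ± 0.29 on the log2 scale (SE; adjusted p = 0.527 in edgeR).

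The contractile genes of smooth muscle were Acta2, which encodes smooth muscle actin, Tagln, which encodes the actin-binding protein transgelin, and Myl9, which encodes a regulatory myosin light chain. Acta2 was at 27.6, 25.8, 46.9, 47.6 and 60.8 CPM in CON 1 to CON 5 and at 53.4, 39.5, 77.2, 48.0 and 56.0 CPM in MIA 1 to MIA 5. Only MIA 3 exceeded the highest control. Acta2 means were 41.7 ± 14.8 and 54.8 ± 14.0 CPM (SD, n = 5 each), or 0.39 ± 0.25 apart on the log2 scale (SE; adjusted p = 0.406 in edgeR). Tagln, the scarcest member by CPM, was at 3.86, 4.11, 8.09, 8.86 and 10.6 CPM in the controls and at 8.27, 6.035, 10.6, 7.84 and 9.76 CPM in MIA. None of the MIA libraries exceeded CON 5. Its log2 fold change was the smallest of the 10, 0.26 ± 0.28 (SE; adjusted p = 0.667 in edgeR). Myl9 was at 29.5, 31.0, 38.3, 46.9 and 52.8 CPM in the controls and at 52.9, 36.2, 56.1, 45.6 and 49.7 CPM in MIA. Here too the groups overlapped, at means of 39.7 ± 10.1 and 48.1 ± 7.69 CPM (SD, n = 5 each) and 0.28 ± 0.17 apart on the log2 scale (SE; adjusted p = 0.373 in edgeR). Each contractile promoter shown above therefore belongs to a gene without a call between the groups.

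**Figure D2:**
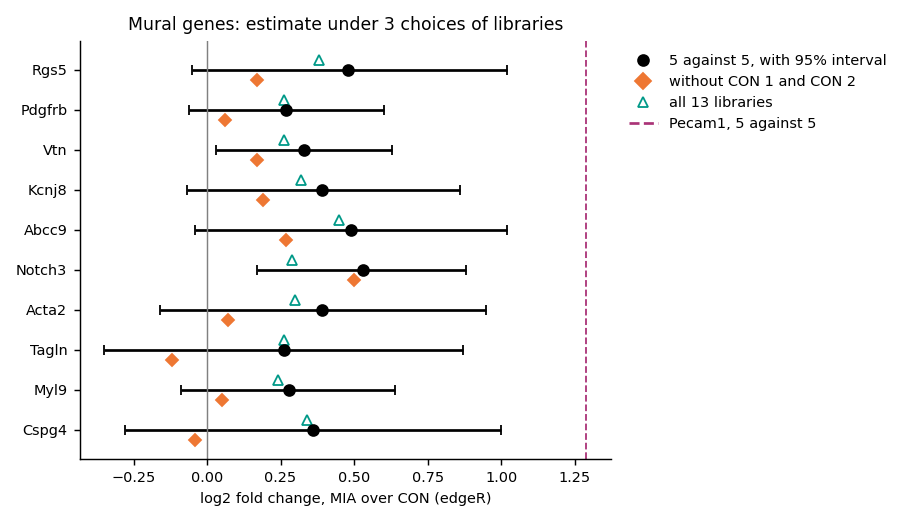
Log2 fold change of MIA over CON for each mural gene on the horizontal axis; circles with bars give 5 against 5 libraries with the 95% interval, diamonds the fit without CON 1 and CON 2, triangles all 13 libraries, and the dashed line is the endothelial gene Pecam1 at 1.29. The intervals of Notch3 and Vtn lie above 0, the other 8 include 0, and the diamonds of Tagln and Cspg4 lie below 0.

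Among the retained controls, 2 libraries were low in most mural genes. CON 1 and CON 2 were the 2 lowest of all 13 libraries in 7 of the 10 genes, namely Rgs5, Pdgfrb, Vtn, Acta2, Tagln, Myl9 and Cspg4, against 6.06% of all genes tested. CON 1 or CON 2 was the lowest library in 9 of 10, the exception being Kcnj8. Without both of them the median log2 fold change of the mural genes was 0.12, and 1 of 10 genes, Notch3, rose, at 0.50 (edgeR adjusted p = 0.0334), where 6.83% of all genes were higher. Rgs5 and Vtn were then both at 0.17, Abcc9 at 0.27 and Kcnj8 at 0.19. Acta2 was at 0.07, Pdgfrb at 0.06 and Myl9 at 0.05 on the log2 scale. The values of Tagln and Cspg4 turned to −0.12 and −0.04, so the direction of these 2 genes rested on CON 1 and CON 2. Leaving out the 2 lowest libraries of a gene raises its control mean. The fall in the 7 genes named first therefore followed from the choice of libraries.

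The excluded libraries were rich in mural RNA whichever group they belonged to, and other cell types differed in them too. Rgs5 reached 712 CPM in CON 6, 592 in MIA 6 and 651 in MIA 7, all above the highest retained library. CON 6 held 2.51 times the mean Rgs5 level of the retained controls. Pdgfrb was at 91.5, 81.2 and 90.8 CPM in CON 6, MIA 6 and MIA 7, and Vtn at 250.0, 220 and 214 CPM. Both channel genes stood above every retained library as well. For Kcnj8 the values were 51.7, 47.0 and 43.7 CPM, and for Abcc9 they were 43.1, 45.8 and 37.8 CPM. Notch3 was at 22.1 and 17.6 CPM in CON 6 and MIA 6, while MIA 7, at 13.4 CPM, lay among the retained MIA libraries. The contractile gene Acta2 was less set apart, at 73.9, 54.5 and 77.6 CPM, of which only MIA 7 passed the highest retained value. Tagln was at 11.25 CPM in CON 6, 11.25 in MIA 6 and 11.5 in MIA 7. Myl9 reached 78.3, 69.1 and 71.6 CPM, and Cspg4 26.7, 26.2 and 26.5 CPM.

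In all, 27 of the 30 values from excluded libraries were above all 10 retained libraries. All 3 were so for 8 of 10 genes, against 0.329% of the genes tested, Notch3 and Acta2 being the exceptions. CON 6 was the highest of 13 libraries in 7 of 10 genes, against 4.53% of all genes. The mural sum was 1361 CPM in CON 6, 1165 in MIA 6 and 1238 in MIA 7. Above the highest retained control alone were 10 of 10 genes in CON 6, 9 in MIA 6 and 10 in MIA 7, against 16.2, 14.9 and 15.7% of all genes tested. Endothelial markers summed to 2772 CPM in CON 6, 2201 in MIA 6 and 2421 in MIA 7. All 3 were above the 872 to 1451 CPM of the retained controls. MIA 6 and MIA 7 were below the 2628 to 4425 CPM of the retained MIA libraries. Fibroblast markers summed to 421, 513 and 523 CPM, above the 287 to 346 CPM of the retained controls. MIA 6 and MIA 7 were here within the 379 to 529 CPM of retained MIA. Microglial markers summed to 11010, 12290 and 12550 CPM, below the 12580 CPM of the lowest retained control. Those of MIA 6 and MIA 7 were above the 8742 to 11080 CPM of retained MIA. The part of these cell types in the mural values was not tested. With all 13 libraries in the fit the median log2 fold change of the members was 0.30 and 0 of 10 passed, where 2.71% of all genes were higher (edgeR). The unadjusted p was under 0.05 for 0 of the 10 in that fit and for 20.0% of all genes.

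Between genes, levels were compared per length, as CPM per kb of exon. In the retained controls Rgs5 and Vtn had the highest levels, at 62.5 ± 21.3 and 61.4 ± 10.7 CPM per kb (SD, n = 5). Myl9 followed at 34.2 ± 8.66 and Acta2 at 19.0 ± 6.74. The receptor gene Pdgfrb, at 8.27 ± 1.80, and the channel pore gene Kcnj8, at 8.78 ± 2.01, could not be ranked beyond their spread. Tagln was at 3.57 ± 1.50, Abcc9 at 1.98 ± 0.684, Cspg4 at 1.20 ± 0.561 and Notch3 at 1.14 ± 0.260 CPM per kb. Of neighbours in this order, Vtn and Myl9, Acta2 and Kcnj8, and Pdgfrb and Tagln were apart by more than their spread, and all other neighbours overlapped (mean ± SD). Per length, the channel pore gene Kcnj8 was thus above the regulatory subunit gene Abcc9. By CPM the controls of the 2 genes overlapped, at 22.4 ± 5.12 and 16.6 ± 5.73 (SD, n = 5). The exon lengths used were 2.55 and 8.37 kb, and the difference was not tested. In MIA the order was kept except for the lowest pair, with Notch3 at 1.65 ± 0.0768 and Cspg4 at 1.55 ± 0.291 CPM per kb (SD, n = 5).

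Endothelial genes rose in the MIA libraries. All 10 of 10 endothelial markers were higher in MIA (Cldn5, Pecam1, Kdr, Flt1, Tek, Tie1, Esam, Cdh5, Egfl7 and Emcn), with a median log2 fold change of 1.42 and a summed level of 872 to 1451 CPM in the retained controls and 2628 to 4425 CPM in MIA. None of the 10 was at 0 in a retained library, and the part of endothelial RNA in the mural values was not tested. Setting mural against endothelial RNA within each library removes its scaling. The ratio of Rgs5 to Pecam1, an endothelial adhesion gene, was 2.14, 2.52, 3.12, 4.08 and 3.28 in CON 1 to CON 5. In MIA 1 to MIA 5 it was 2.22, 1.53, 1.73, 1.71 and 1.68. In MIA 4 of 5 libraries were below the lowest control, and MIA 1 lay just above CON 1. The ratio averaged 2.96 in CON and 1.76 in MIA (geometric means), 0.596 times as high, a log2 difference of −0.75 (2-sided exact permutation p = 0.0159, adjusted p = 0.0238 over 3 ratios). Pecam1 itself rose by 1.29 on the log2 scale in these libraries, beside 0.48 for Rgs5 and 0.39 for Acta2, neither of them called. A lower ratio to Pecam1 is therefore no fall of mural RNA, and its p-value largely repeats the call of Pecam1.

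The ratio of Acta2 to Pecam1 was 0.372, 0.312, 0.470, 0.507 and 0.554 in the controls and 0.281, 0.219, 0.272, 0.214 and 0.227 in MIA. All 5 MIA libraries were below the 5 controls. The geometric means were 0.434 and 0.241, a log2 difference of −0.85 (2-sided exact permutation p = 0.00794, which no 5 against 5 design can go below, and adjusted p = 0.0238). Acta2 to Rgs5 averaged 0.147 in CON and 0.137 in MIA, a log2 difference of −0.10 that did not pass (2-sided exact permutation p = 0.437). This is a ratio of 2 transcripts, and the balance of smooth muscle cells and pericytes was not tested. Leaving out CON 1 and CON 2 gave −0.98 and −1.08 for the 2 endothelial ratios (exact permutation adjusted p = 0.0268 each). CON 1 and CON 2 were the 2 lowest retained controls in both ratios. Without them the control mean must rise, so the wider difference followed from the choice of libraries. The excluded MIA libraries went the other way: their Rgs5 to Pecam1 ratios were 3.85 and 3.56, within the range of the retained controls, and CON 6 was at 3.81. With all 13 libraries the Rgs5 to Pecam1 difference was −0.50 and no longer passed (permutation adjusted p = 0.125), while that of Acta2 to Pecam1 was −0.63 (permutation adjusted p = 0.0350). With all 13 except CON 1 and CON 2 they were −0.71 (adjusted permutation p = 0.0727) and −0.79 (adjusted permutation p = 0.0364).

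**Figure D3:**
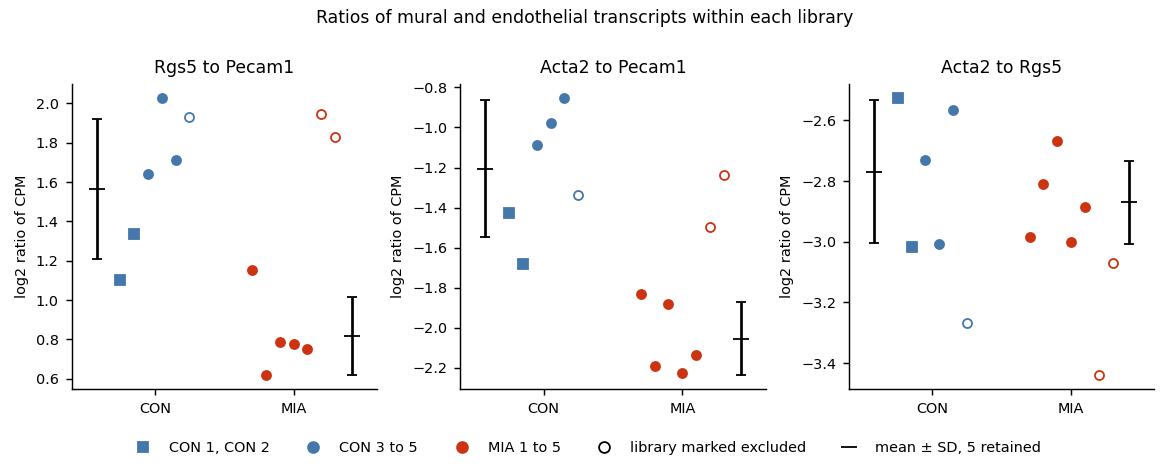
Log2 ratio of CPM within each library on the vertical axis for Rgs5 to Pecam1, Acta2 to Pecam1 and Acta2 to Rgs5, by group on the horizontal axis; each point is 1 library (open circles excluded, squares CON 1 and CON 2), and bars are the mean ± SD of the 5 retained libraries. Retained MIA libraries lie low in both endothelial ratios, all 5 below the controls for Acta2 to Pecam1, while the excluded MIA 6 and MIA 7 lie at the level of the controls in these 2 panels.

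Other genes of the same cells and pathways were taken from lists of related genes. Beside the counts of each list stand the shares of all genes tested, 5.75% higher and 4.58% lower in MIA. Of 10 other pericyte genes, 2 were higher and 0 lower, with a median log2 fold change of 0.39. The forkhead factor gene Foxf2 went from 7.17 ± 0.954 to 21.3 ± 2.99 CPM (SD, n = 5 each), and Gja4, which encodes a connexin, from 27.4 ± 5.83 to 50.4 ± 10.1 CPM. Gja4 is also expressed by arterial endothelium. The log2 fold change of Foxf2 was 1.57, beside a median of 1.42 for the endothelial genes and 0.39 for this list. Which cells gave the Foxf2 RNA was not tested. Mcam, a surface adhesion gene shared by pericytes and endothelium, did not pass, although it had the highest CPM of the list, at 36.9 ± 9.81 and 56.3 ± 14.2 CPM. Among smooth muscle genes 8 of 12 could be tested, 2 were higher and 0 lower, and the median was 0.38. Smtn, which encodes smoothelin, rose by 1.12 ± 0.16 on the log2 scale (SE) and Tpm1, which encodes tropomyosin, by 0.54 ± 0.11. In MIA 6 and MIA 7 Smtn was at 50.3 and 57.2 CPM, below the 62.4 to 108.9 CPM of retained MIA. Tpm1 was there at 74.7 and 84.9 CPM, within the 66.4 to 94.8 CPM of retained MIA. Which cells gave the RNA of these genes was not tested. Myh11, the smooth muscle myosin heavy chain, was at 4.80 ± 1.81 and 4.93 ± 1.15 CPM (SD, n = 5 each), named here after its values were seen. Cnn1, Lmod1, Pln and Map3k7cl did not pass the filter on low counts.

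The transcription factors of the smooth muscle programme included 1 gene that rose among 4, with a median of 0.10. This was Mrtfb, a coactivator of serum response factor, from 21.6 ± 1.86 to 40.3 ± 4.86 CPM (SD, n = 5 each). Its relative Mrtfa did not pass, at 26.5 ± 2.56 and 23.9 ± 2.44 CPM. Of 5 genes for ligands of the platelet-derived growth factor family and their alpha receptor, 2 were higher and 0 lower (median 0.54). The ligand gene Pdgfd rose by 1.08 ± 0.24 and Pdgfra by 1.10 ± 0.19 on the log2 scale (SE). Pdgfb, a ligand gene of the Pdgfrb receptor, was at 8.74 ± 1.92 and 12.7 ± 3.54 CPM (SD, n = 5 each). Its edgeR adjusted p was 0.128. The receptor gene Pdgfrb was itself without a call, as above.

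In the Notch pathway 8 of 13 genes were higher and 0 lower, with a median log2 fold change of 1.10. The ligand genes Dll4, Jag1 and Jag2 rose by 1.53 ± 0.23, 1.23 ± 0.17 and 1.13 ± 0.23 on the log2 scale (SE). The receptor genes Notch1 and Notch4, both used by endothelium, rose by 0.70 ± 0.16 and 1.51 ± 0.39. Of 5 targets of Notch signalling 3 rose, Hes1 by 1.72 ± 0.36, Hey1 by 1.10 ± 0.15 and Nrarp by 1.26 ± 0.32. The target gene Hey2 and the ligand gene Dll1 did not pass, at 0.07 ± 0.43 and 0.00 ± 0.35. The members of highest CPM, Rbpj, the DNA-binding partner of all Notch receptors, and Notch2, were at log2 fold changes of −0.09 ± 0.07 and −0.21 ± 0.13 and did not pass. Heyl, a target gene expressed in mural cells and also without a call, was at 16.4 ± 3.02 and 17.3 ± 3.04 CPM (SD, n = 5 each), and Hey2, Dll1 and Heyl are named after their values were seen. Beside these, the log2 fold change of Notch3 was 0.53, and the differences between the pathway genes were not tested.

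Proteins that bind vitronectin were represented by 6 genes, of which 0 were higher and 2 lower (median −0.09). The integrin subunit genes Itgb3 and Itgb5, which microglia express, had log2 fold changes of −0.65 ± 0.17 and −0.44 ± 0.12 (SE). Itgb1, the highest of the 6 in CPM, was at 495 ± 76.1 and 530.2 ± 59.1 CPM (SD, n = 5 each). Relatives of the contractile genes included 8 tested of 10, of which Tagln2 alone was higher, by 0.40 ± 0.11 (SE), with 0 lower and a median of 0.21. The cytoskeletal actin genes had no call: Actb was at 14810 ± 1324 and 12590 ± 732 CPM and Actg1 at 2981 ± 615 and 3155 ± 74.6 CPM (SD, n = 5 each). Among 5 relatives of Rgs5, 0 were higher and 2 lower, with a median of −0.34: Rgs2 was at −0.67 ± 0.12 and Rgs10 at −0.43 ± 0.10 (SE). Rgs2 and Rgs10 are both known from myeloid cells.

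Markers of further cell types differed in how many passed. Among fibroblast genes 3 of 5 were higher and 0 lower, with a summed level of 287 to 346 CPM in CON and 379 to 529 CPM in MIA. The 3 were Col1a1, Col1a2 and Dcn, at log2 fold changes of 0.53 ± 0.11, 0.45 ± 0.09 and 0.59 ± 0.13 (SE), and Col3a1, the highest in CPM, did not pass. Of 6 oligodendrocyte precursor genes only Pdgfra passed, as higher, while Ptprz1 and Olig1, the highest in CPM, did not. Their sum ran from 81.0 to 232 CPM in CON and from 144 to 302 CPM in MIA, with CON 1 the highest control and the groups overlapping. In CON 1 Ptprz1 alone held 188 of the 232 CPM, so the sum there rests mostly on 1 gene. Cspg4, which those precursors also express, was at 7.75 CPM in CON 1. All 5 microglial genes given here were lower, with a median of −0.55. The part of any of these cell types in the mural values was not tested.

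**Figure D4:**
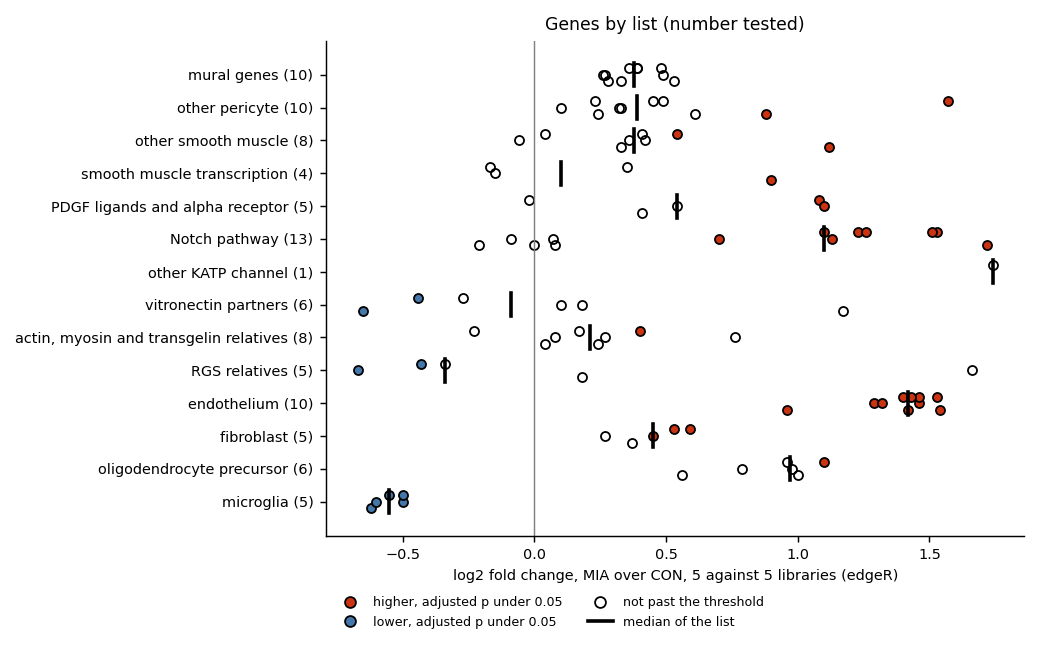
Log2 fold change of MIA over CON on the horizontal axis for each tested gene, by list on the vertical axis; filled points passed the edgeR threshold, open points did not, and black bars are list medians. The 10 mural genes are all open and to the right of 0, the 10 endothelial genes are all filled and at 0.96 or above, and the 5 microglial genes lie to the left.

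Across libraries most mural genes varied together. With each group's mean subtracted from log2 CPM, 7 of 9 members followed Rgs5 over the 10 retained libraries by Pearson's r and 5 of 9 by Spearman's rho (exact permutation within groups, Benjamini-Hochberg over 9 relations). Only these 9 relations were tested, so the share of all genes that pass this test with Rgs5 is not known. By r alone Pdgfrb was at rank 420 and Kcnj8 at rank 455 among 8527 genes. The endothelial genes Pecam1 and Cldn5, at r of 0.790 and 0.794, were above both. The contractile genes followed Rgs5 most closely. Tagln had r = 0.95 and rho = 0.96 (exact permutation adjusted p = 0.00250 for each), Myl9 r = 0.94 and rho = 0.94 (exact permutation adjusted p = 0.00250 for each) and Acta2 r = 0.91 and rho = 0.92 (exact permutation adjusted p of 0.00854 and 0.00875). Cspg4 had r = 0.91 and rho = 0.84 (0.00906 and 0.0336), and Vtn 0.82 for both (0.0103 and 0.0145; exact permutation adjusted p). The relation was looser for Pdgfrb, with r = 0.77 and rho = 0.72, and for Kcnj8, with r = 0.76 and rho = 0.66. Both passed by r (exact permutation adjusted p of 0.0337 and 0.0153) and not by rho (0.0707 and 0.0621).

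Abcc9 and Notch3 did not pass. Abcc9 had r = 0.61 and rho = 0.62 (exact permutation adjusted p of 0.116 and 0.0969), and Notch3 r = −0.01 and rho = 0.14 (0.975 and 0.739). Without CON 1 and MIA 2, the 2 libraries farthest from the median of Rgs5, r was 0.94 for Tagln, 0.91 for Myl9, 0.92 for Acta2, 0.90 for Cspg4, 0.84 for Vtn, 0.76 for Pdgfrb and 0.66 for Kcnj8. In Abcc9 and Notch3 it was then 0.91 and 0.80. CON 1 held the lowest Rgs5 and the highest Notch3 of the retained controls, and an Abcc9 level at their median. Without CON 1 and CON 2 together, 4 relations passed over 8 libraries, those of Vtn, Abcc9, Tagln and Myl9, at r of 0.90, 0.91, 0.89 and 0.92 (exact permutation adjusted p of 0.0344, 0.0250, 0.0344 and 0.0250). Of the others r was 0.84 for Acta2, 0.80 for Kcnj8, 0.74 for Cspg4, 0.65 for Pdgfrb and 0.37 for Notch3 over these 8 libraries. With all 13 libraries 8 passed, all but Notch3 at r = 0.60 (permutation adjusted p = 0.107). That count includes the excluded libraries, which were high in most mural genes at once. These genes share the library, its depth and its scaling.

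The pattern of Rgs5 was not limited to mural genes. Among 8527 genes with a mean of at least 10 CPM, the highest group-centred r with Rgs5 over the 10 retained libraries was that of Impdh1, an enzyme gene of guanine nucleotide synthesis, at 0.956. Next came Bora at 0.956, Tagln2 at 0.952, Klf11 at 0.949 and Lmnb2, a nuclear lamin gene, at 0.944. Myl9 took rank 8, Acta2 rank 29 and Cspg4 rank 32, while Pdgfrb was at rank 420. Vtn was at rank 231, Kcnj8 at 455, Abcc9 at 1120 and Notch3 at 4918. For Acta2 the 5 highest were Kcp at 0.962, Impdh1 at 0.951, the matrix gene Fbln2 at 0.949, the chemokine gene Cxcl12 at 0.942 and Slc25a25 at 0.934. Cspg4, Vtn and Myl9 followed at ranks 7, 8 and 9 for Acta2. The endothelial gene Pecam1 was at rank 344 for Rgs5, with r = 0.790, and at rank 73 for Acta2, with r = 0.862. These ranks are descriptions of 10 libraries and carry no test.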

How the data were processed

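The deposited values are expected counts, which the authors had estimated per gene and which can hold fractions of a read, for 13 libraries of CD11b-selected mouse microglia. RSEM, STAR and DESeq2 are named per the submitters' processing notes. The sources used here do not give the genome build or the annotation. Libraries were of the Smart-Seq2 type, primed with oligo-dT, and tagmented with a kit that keeps no strand, per the labels' protocols. Reads carry no molecular identifiers, so the worth of 3 counts covers counting error only. Of the nonzero values 20.6% were not whole, and all were rounded, by at most 0.5. Ensembl IDs gave symbols for 55141 genes with or without the version, and for 54349 exactly. Exon lengths came from GENCODE M21, which may differ from the annotation used for counting.

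The test of each gene was the quasi-likelihood test of edgeR 4.0.16 in R 4.3.3, with group as its 1 term, filterByExpr, TMM scaling and robust dispersions, and with Benjamini-Hochberg adjustment over 15511 genes and a threshold of 0.05. The SE is the absolute log2 fold change divided by the square root of F. Ratios of CPM used 2-sided exact permutation of the libraries, and relations with Rgs5 exact permutation within groups (14400 permutations), or 100000 resamples with all 13 libraries. Alternatives were a replicate block, other sets of libraries, other scalings, other filters, DESeq2 1.42.0, limma-voom (limma 3.58.1), a prior count of 2 in the ratios and leaving out each library. The fit was tested on simulated data.

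The members, the lists and the tests were chosen with earlier results of these data known, and the counts by single library after their values had been seen. Genes named besides the members were those past the threshold in each list, the 2 of highest mean CPM of each list, and the 5 genes most like Rgs5 and Acta2 in group-centred log2 CPM. For Myl12b, which has more than 1 Ensembl ID, the more abundant was used. A further marker of microglia is not reported here. The excluded libraries entered named alternatives and values only, and the sources used here do not say why they were excluded.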

Additional observations from a re-analysis of the deposited data

Results flagged for a closer look

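The libraries whose titles mark them as excluded held more mural RNA than the retained controls, and more endothelial and fibroblast RNA as well. Against the retained MIA libraries, MIA 6 and MIA 7 were higher in the mural sum and lower in the endothelial sum. In CON 6, 10 of the 10 mural genes were above the highest retained control. In MIA 6, 9 of 10 were, the exception being Acta2. In MIA 7 it was 10 of 10. Over all genes tested the shares were 16.2, 14.9 and 15.7%. These values were singled out because they come from libraries outside the comparison and lie above all its controls. Within the retained groups, MIA 1 stood apart from the other MIA libraries in the ratio of Rgs5 to Pecam1, with a gap of 0.722 of the range, above Dixon's 95% critical value of 0.71 for 5 samples. On the log2 scale of the test that ratio did not pass the critical value, and without 1 retained library the difference kept its call. It was the 1 group of 32 set apart in this way, and chance sets apart about 1 in 20.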

How the results depend on the processing

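Of 209 values of single members under the alternatives, 199 kept their direction and their side of the threshold, 6 passed it, all of them Notch3, and 4 turned: Tagln at −0.12 and Cspg4 at −0.04 without CON 1 and CON 2, and Tagln at −0.06 and Cspg4 at −0.01 with all 13 libraries except these, a setting chosen after seeing the data. The count of members called went from 0 to 1 without CON 1 and CON 2, with scaling to total counts, with the strict filter (10 CPM in 5 libraries, 9 members tested), in DESeq2 and in limma-voom, and ran from 0 to 1 when 1 library was left out. The Rgs5 relations passed fell from 7 to 4 without CON 1 and CON 2. Over all genes, 892 were higher and 710 lower, 1602 in all. Scaling to total counts gave 1036 and 496, and moved the median log2 fold change of all genes to 0.052. All 13 libraries gave 659 (424 higher, 235 lower), and all 13 except CON 1 and CON 2 gave 90 (53 and 37). Leaving out 1 library gave 1037 to 2262 in all, 672 to 1238 higher and 365 to 1024 lower. The lowest totals were 1058 (382 lower), without MIA 4, and 1037 (365 lower), without MIA 5, and the lower genes numbered 464 without CON 2. The cause was not tested.

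With the replicate number as a replicate block, 1524 genes passed (900 higher, 624 lower) and 0 members, with 8 of 10 members at an unadjusted p under 0.05 and 23.1% of all genes. Same-numbered libraries correlated at 0.058 to 0.302, and only CON 3 correlated best with its own number, so the numbers were not taken as pairs. The ratios under the replicate block, a sign-flip over 5 pairs whose smallest p is 0.0625, were −0.75 for Rgs5 to Pecam1 and −0.85 for Acta2 to Pecam1 (exact permutation adjusted p = 0.188 each). The Rgs5 to Pecam1 difference no longer passed with all 13 libraries, at −0.50, or with all 13 except CON 1 and CON 2, at −0.71. Without 1 retained library it ran from −0.86 to −0.63, and that of Acta2 to Pecam1 from −0.97 to −0.76, each past the threshold. Depth limits the members little, as the lowest count was 112.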
